A study of Mus musculus with 16 samples.

Results

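The 9 genes followed here encode enzymes that make, salvage, clear or break down deoxynucleotides, the building blocks of DNA. They were *Rrm1*, *Rrm2*, *Tyms*, *Dut*, *Dctd*, *Tk1*, *Dck*, *Cda* and *Samhd1*, picked by symbol from the 20622 genes of the total RNA files, and all 9 passed the filter on low counts in both kinds of library. *Cda* and *Samhd1* were picked because they were lower in KM 4A2cr cells in these same libraries. Their differences between the cell lines are therefore given as a description, with no test. The other 7 were picked for their place in the pathway.

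KM cells came from the lung tumours of 1 male mouse that carried, among its alleles, *Rosa26* LSL-MYC/LSL-MYC, in which tumours had been started with Ad5-SPC-CRE, an adenovirus that drives Cre from the promoter of surfactant protein C. The *MYC* transgene is thus shared by both lines. KM NTC cells carried a non-targeting CRISPR guide. KM 4A2cr cells carried a guide against the coding region of *Eif4a2*, which encodes an RNA helicase that represses translation, and were a pool of 4 clones negative for the eIF4A2 protein. All cells were untreated. Each line had 4 replicates, plated and harvested on different days. Every lysate gave 1 library of ribosome-protected fragments (RPFs), the pieces of mRNA covered by ribosomes, and 1 of cytoplasmic total RNA, so there were 16 libraries.

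Ribonucleotide reductase, built of a large subunit (*Rrm1*) and a small subunit (*Rrm2*), turns ribonucleotides into deoxynucleotides. Thymidylate synthase (*Tyms*) makes dTMP from dUMP, which comes from dCMP by the deaminase *Dctd* or from dUTP by the hydrolase *Dut*. *Tk1* and *Dck* are kinases that salvage deoxynucleosides, *Cda* deaminates cytidine and deoxycytidine, and *Samhd1* cleaves dNTPs back to nucleosides. *Rrm2*, *Tk1* and *Tyms* are known as genes of S phase, when DNA is copied, whereas *Samhd1* is best known in resting cells and as a restriction factor for viruses.

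Promoter stretches are shown for the members that held a motif in common, both reductase subunits among them, to give its place in RefSeq windows (GRCm38.p6, 250 bases before to 50 after each annotated start). The letters CCAAT, the core of the site of the factor NF-Y, were searched on both strands and lay in the windows of *Rrm1*, *Rrm2* and *Dctd*, against 37.4% of all 32851 windows and 41.1% of 27025 genes, so the share among the 9 was no higher than over all genes. *Tyms*, *Tk1*, *Dut* and *Dck*, which were low in the same libraries as *Rrm1* and *Rrm2*, held none in these windows. The stretches below are 30 bases of the plus strand, 5′ to 3′, with the motif in capitals.
Rrm1, chr7:102441593-102441622, CCAAT 91 bases before the start: cttgcccacacCCAATatggcggcaggaga
Rrm1, chr7:102441639-102441668, CCAAT 45 bases before the start: tccgctttcacCCAATgtggtggaaaggag
Rrm2, chr12:24708193-24708222, CCAAT 50 bases before the start: gtcagcggcgtCCAATgggaggcgaggcca
Dctd, chr8:48109920-48109949, CCAAT 27 or 82 bases before 2 of its 3 annotated starts: ccatgcctgcaCCAATggggggcgggaggg
The letters TTTGAA, of the motif called CHR, were found in the window of *Dck* alone among the 9, against 17.9% of all windows. None of the 9 held the E2F letters TTTCCCGC, TTTGGCGC, TTTCGCGC, TTTGCCGC, TTTCCCGG or TTTGGCGG (3.98% of windows), the interferon response motif of 2 GAAA blocks set 2 bases apart (3.44%) or the letters TATAAA (13.6%). A match is a description of these windows and not a site shown to be bound.

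RPF libraries held 4512403 to 9621848 counts and total RNA libraries 5350919 to 9312622. Levels are given in CPM, which are counts scaled to a common library size that was adjusted by TMM, and differences as log2 fold changes of KM 4A2cr against KM NTC from the quasi-likelihood test of edgeR, blocked by replicate number. A gene was called at an adjusted p under 0.1 over all genes tested. Replicate 4 stood apart in both lines and was the shallowest library in each group. The RPF differences of the 9 genes and the RPF counts of the nucleotide, S phase, mitosis and interferon lists are therefore also given without it. On this scale the targeted gene *Eif4a2* was at -0.49 in RPFs (SE, the standard error of the fit, 0.15) and at -0.18 in total RNA (SE 0.13), and its RPF level in KM 4A2cr was 0.522, 0.724, 0.749 and 0.889 of that in KM NTC in pairs 1 to 4. Why *Eif4a2* RPFs and RNA remained in a pool of clones described as negative for the protein was not tested. Of the marker lists, the 6 epithelial genes summed to 4174 to 5918 TPM, the length-adjusted share of transcripts that RSEM gives, whereas *Sftpc* and *Sftpb*, which define the alveolar type II cells that the SPC promoter marks, were listed at 0 in all libraries. The whole list of 10 alveolar type II genes summed to 43.7 to 59.3 TPM, most of it from *Abca3* (27.6 to 47.6 TPM) and *Etv5* (6.19 to 21.4 TPM). The 11 myeloid genes summed to 60.8 to 233 TPM in KM NTC and 61.6 to 161 TPM in KM 4A2cr, of which *Cd68* gave 32.5 to 220 TPM (both lines) and *Cd14* 5.03 to 35.5 TPM, while *Adgre1*, *Lyz2* and *Marco* were listed at 0 in all libraries. The 9 fibroblast genes summed to 1.07 to 3.03 TPM, and the lymphoid and endothelial lists reached at most 0.73 and 2.13 TPM. The part of other cell types in the results was not tested.

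Among the 9 genes, RPF levels of 3 were called lower in KM 4A2cr and 0 higher, where 3.72% of all 10291 genes were called lower, 6.6% higher and 10.3% in either direction. These were *Cda*, *Samhd1* and *Dut*, and the choice of the first pair fixed their place in this count. Of the 7 genes not chosen for a fall, 1 was called, *Dut*. All 7 had an RPF log2 fold change below 0, as had 5262 of all 10291 genes. The median of the 7 was -0.28 against -0.01 over all genes tested. *Rrm2* and *Dctd* were within 1 SE of 0, and *Dctd* was at 0.15 without replicate 4. The 7 genes were measured in the same libraries, so they are not 7 replicates. In total RNA 1 of the 9 was called lower, *Cda*, where 1.78% of 10880 genes were (4.35% higher and 6.13% in either direction). Since *Cda* was chosen for its fall in these libraries, nothing is read from this count. The 7 genes not chosen for a fall had a total RNA median of -0.32 against 0.01. Of the 7, 0 were called in total RNA in edgeR or DESeq2. An unadjusted p under 0.05 in edgeR was reached by 2 of the 7 and by 1995 of all 10880 genes. Without replicate 4, when 33.4% of all genes were called in RPFs, *Rrm1* joined *Cda*, *Samhd1* and *Dut*. In total RNA *Dut* then joined *Cda* (29.8% of all genes called).

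**Figure D1:**
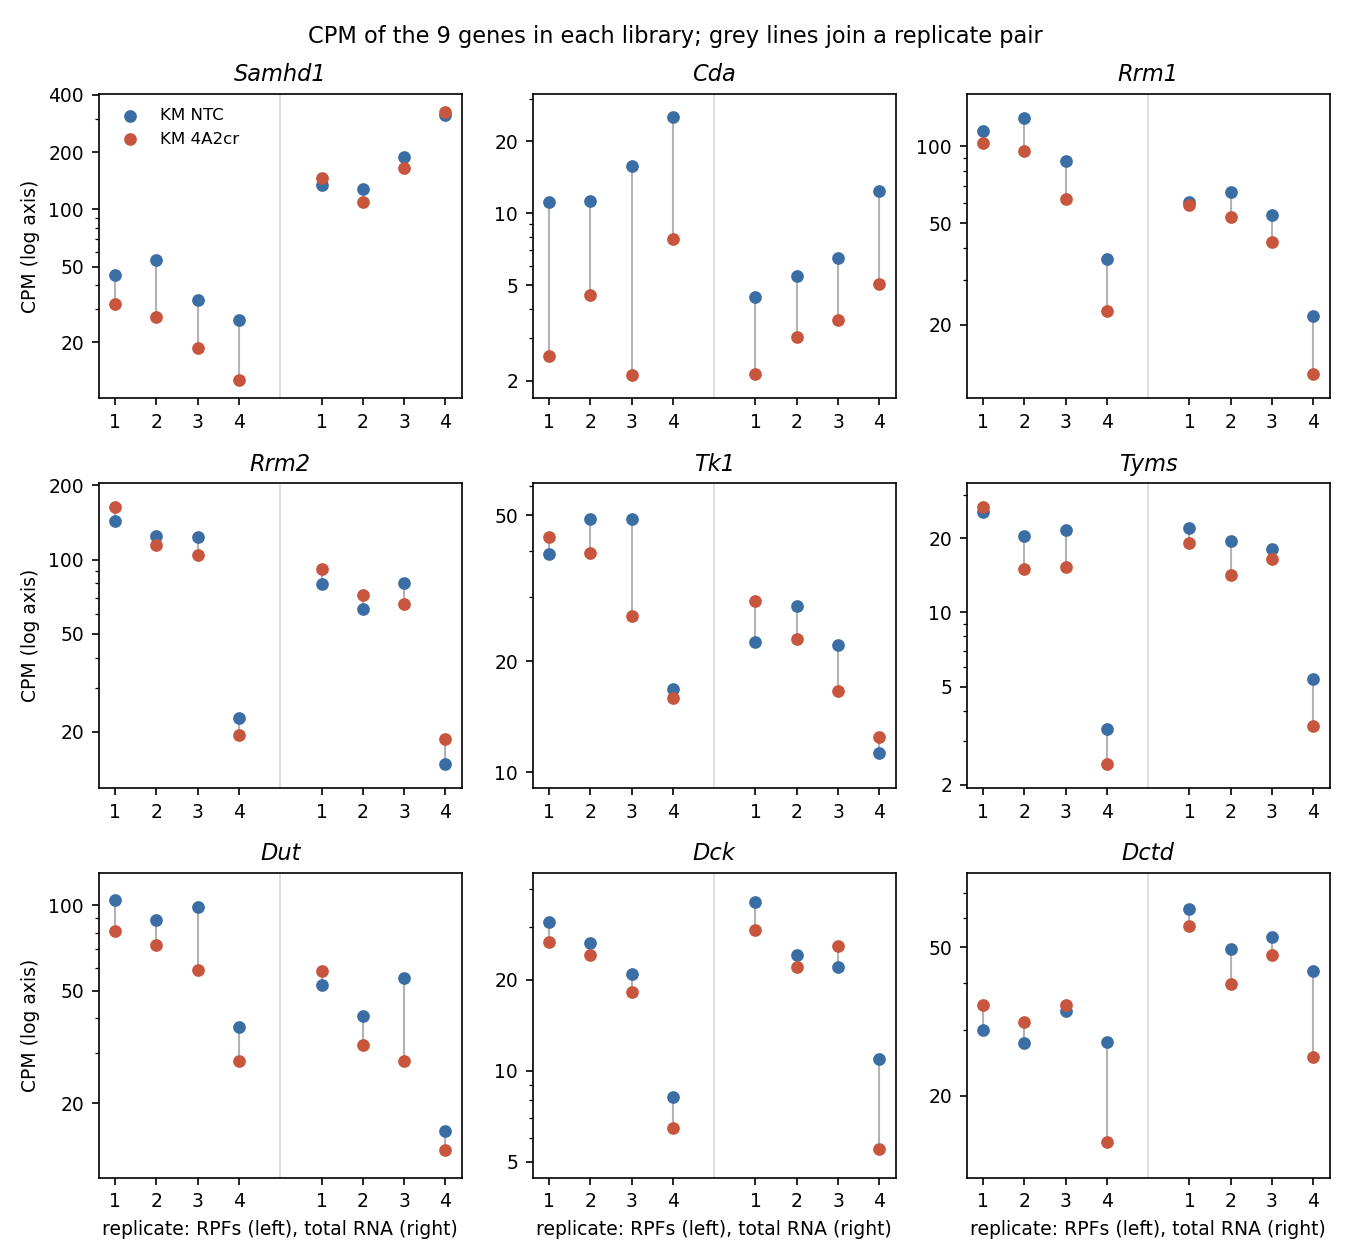
Level of each gene in each library, in CPM on a log axis, with RPFs at the left and total RNA at the right of each panel. Points are single libraries of KM NTC (blue) and KM 4A2cr (red), and a grey line joins the pair of 1 replicate. RPFs of *Cda*, which was chosen for its fall, do not overlap between the lines, a pattern of 1.15% of all genes in this direction. Replicate 4 is low for *Rrm1*, *Rrm2*, *Tk1*, *Tyms*, *Dut* and *Dck*.

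The reductase subunits gave different values between the lines. *Rrm1* RPFs stood at 114, 128, 87.1 and 36.1 CPM in replicates 1 to 4 of KM NTC and at 103, 96.1, 61.9 and 22.6 CPM in KM 4A2cr. KM 4A2cr was the lower in each of the 4 pairs, as were 16% of all genes tested, and the groups overlapped widely. The fitted log2 fold change was -0.42 (SE 0.13, adjusted p = 0.106 in edgeR), just above the threshold, and without replicate 4 it was -0.35 with an adjusted p of 0.0298. *Rrm1* total RNA was also lower in 4 of 4 pairs, as were 13% of all genes tested, and did not pass, at -0.34 (SE 0.14, adjusted p = 0.235 in edgeR), and at -0.25 without replicate 4 (adjusted p = 0.105).

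*Rrm2*, the subunit whose supply limits the enzyme in S phase, showed no such shift. Its RPFs stood at 143, 125, 123 and 22.7 CPM in KM NTC and at 163, 115, 105 and 19.4 CPM in KM 4A2cr, so that KM 4A2cr was higher in pair 1 and lower in the others. The log2 fold change was -0.09 in RPFs (SE 0.13, adjusted p = 0.731 in edgeR, and -0.05 without replicate 4) and 0.09 in total RNA (SE 0.14, adjusted p = 0.783). The adjusted p compares each subunit with 0, and the difference between *Rrm1* and *Rrm2* was not tested. Of the 5 reductase partners, which are the other small subunit *Rrm2b* and the thioredoxin and glutaredoxin enzymes, 1 was called in RPFs, where 10.3% of all genes were. *Txnrd1*, the reductase of thioredoxin, fell by 0.41 on the log2 scale (SE 0.12, adjusted p = 0.0865 in edgeR, lower in 4 of 4 pairs), from 111 ± 18.2 to 84.3 ± 16.4 CPM (SD, n = 4).

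In the branch that supplies dTMP, *Dut* fell and *Tyms* and *Dctd* did not pass the test. *Dut* RPFs stood at 104, 89.1, 98.6 and 37.1 CPM in KM NTC and at 81.0, 72.3, 59.1 and 28.3 CPM in KM 4A2cr. In each pair KM 4A2cr had 0.599 to 0.811 of the KM NTC level. The log2 fold change was -0.45 (SE 0.13, adjusted p = 0.0852 in edgeR), and without replicate 4 it was -0.46 (adjusted p = 0.0100). With replicate 1, 2 or 3 left out, *Dut* no longer passed in edgeR, at adjusted p of 0.203, 0.337 and 0.405, nor did it without the replicate block, at -0.45 (SE 0.38, adjusted p = 0.998).

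*Dut* total RNA stood at 52.5, 40.7, 55.3 and 15.9 CPM in KM NTC and at 58.7, 32.1, 28.2 and 13.6 CPM in KM 4A2cr, higher in pair 1 and lower in the other 3. The log2 fold change was -0.34 (SE 0.18, adjusted p = 0.348 in edgeR). It was -0.54 without replicate 1, -0.12 without replicate 3 and -0.36 without replicate 4 (adjusted p = 0.0823). Its 2 isoforms had nearly equal shares of the expected counts, and the isoform on which RPFs were counted held a median of 49.6% in KM NTC and 51.9% in KM 4A2cr.

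*Tyms* was scarce, with 9 to 281 RPF counts in a library. Its RPFs stood at 25.4, 20.4, 21.6 and 3.36 CPM in KM NTC and at 26.7, 15.0, 15.3 and 2.42 CPM in KM 4A2cr. The log2 fold change was -0.30 in RPFs (SE 0.16, adjusted p = 0.308 in edgeR) and -0.32 in total RNA (SE 0.15, adjusted p = 0.301), where KM 4A2cr was lower in 4 of 4 pairs. Its RPF value was -0.47 without replicate 1, -0.18 without replicate 3 and -0.27 without replicate 4.

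*Dctd* differed from the others in that its RPFs were higher in KM 4A2cr in pairs 1, 2 and 3, at 35.0, 31.5 and 34.9 CPM against 30.0, 27.7 and 33.8 CPM. In replicate 4 the values were 15.1 CPM in KM 4A2cr and 27.9 CPM in KM NTC. With all replicates the RPF log2 fold change was -0.06 (SE 0.19, adjusted p = 0.879 in edgeR), and without replicate 4 it was 0.15 (adjusted p = 0.374). *Dctd* total RNA was lower in 4 of 4 pairs, with a log2 fold change of -0.33 (SE 0.14, adjusted p = 0.236 in edgeR). RPFs were counted on an isoform that held only 12.6% to 19.6% of the *Dctd* expected counts in a library, so its RPFs and total RNA describe partly different transcripts.

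The salvage kinases *Tk1* and *Dck* did not pass in either kind of library. *Tk1* RPFs stood at 39.1, 48.7, 48.9 and 16.8 CPM in KM NTC and at 43.7, 39.5, 26.5 and 15.9 CPM in KM 4A2cr, higher in pair 1 and lower in the others. *Tk1* had log2 fold changes of -0.28 in RPFs (SE 0.18, adjusted p = 0.378 in edgeR) and -0.06 in total RNA (adjusted p = 0.889). The *Tk1* RPF value was -0.45 without replicate 1, -0.04 without replicate 3 and -0.32 without replicate 4. *Dck* RPFs were lower in 4 of 4 pairs, by little, at 0.790 to 0.910 of the KM NTC level. *Dck* had log2 fold changes of -0.21 in RPFs (SE 0.13, adjusted p = 0.377 in edgeR) and -0.21 in total RNA (adjusted p = 0.564), and without replicate 4 they were -0.18 and -0.09.

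*Cda* had the largest difference of the 9, and it was chosen for it. Its RPFs stood at 11.1, 11.3, 15.8 and 25.4 CPM in KM NTC and at 2.54, 4.55, 2.10 and 7.81 CPM in KM 4A2cr. No KM 4A2cr library reached the lowest KM NTC library, a pattern that 1.15% of all genes tested had in this direction. The RPF level in KM 4A2cr was 0.228, 0.402, 0.134 and 0.308 of that in KM NTC in pairs 1 to 4. The log2 fold change was -1.95 (SE 0.24), and -2.02 without replicate 4. *Cda* counts were low, at 114 to 123 RPFs in the KM NTC libraries and 15 to 37 in those of KM 4A2cr.

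*Cda* total RNA stood at 4.49, 5.49, 6.49 and 12.5 CPM in KM NTC and at 2.13, 3.05, 3.60 and 5.07 CPM in KM 4A2cr. It was lower in 4 of 4 pairs and the groups overlapped, since replicate 4 of KM 4A2cr lay above replicate 1 of KM NTC. The total RNA log2 fold change was -1.01 (SE 0.20), on 13 to 65 expected counts in a library, and without replicate 4 it was -0.91.

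*Samhd1*, the dNTPase, was also chosen for its difference, and that difference was in RPFs. They stood at 44.9, 54.3, 33.3 and 26.2 CPM in KM NTC and at 31.8, 27.2, 18.7 and 12.7 CPM in KM 4A2cr. KM 4A2cr had 0.707, 0.501, 0.561 and 0.483 of the KM NTC level in pairs 1 to 4, a log2 fold change of -0.83 (SE 0.14) that was -0.77 without replicate 4. The groups overlapped, as replicate 4 of KM NTC was below replicates 1 and 2 of KM 4A2cr.

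*Samhd1* total RNA did not show this shift. It stood at 134, 128, 189 and 313 CPM in KM NTC and at 146, 109, 165 and 325 CPM in KM 4A2cr, higher in pairs 1 and 4 and lower in pairs 2 and 3. The log2 fold change was -0.06 (SE 0.13), and it was 0.02 when only the isoform used for RPFs was counted. That isoform held 78.2% to 96.2% of the *Samhd1* expected counts, and the share of the other, longer isoform had a median of 17.2% in KM NTC and 10.6% in KM 4A2cr.

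**Figure D2:**
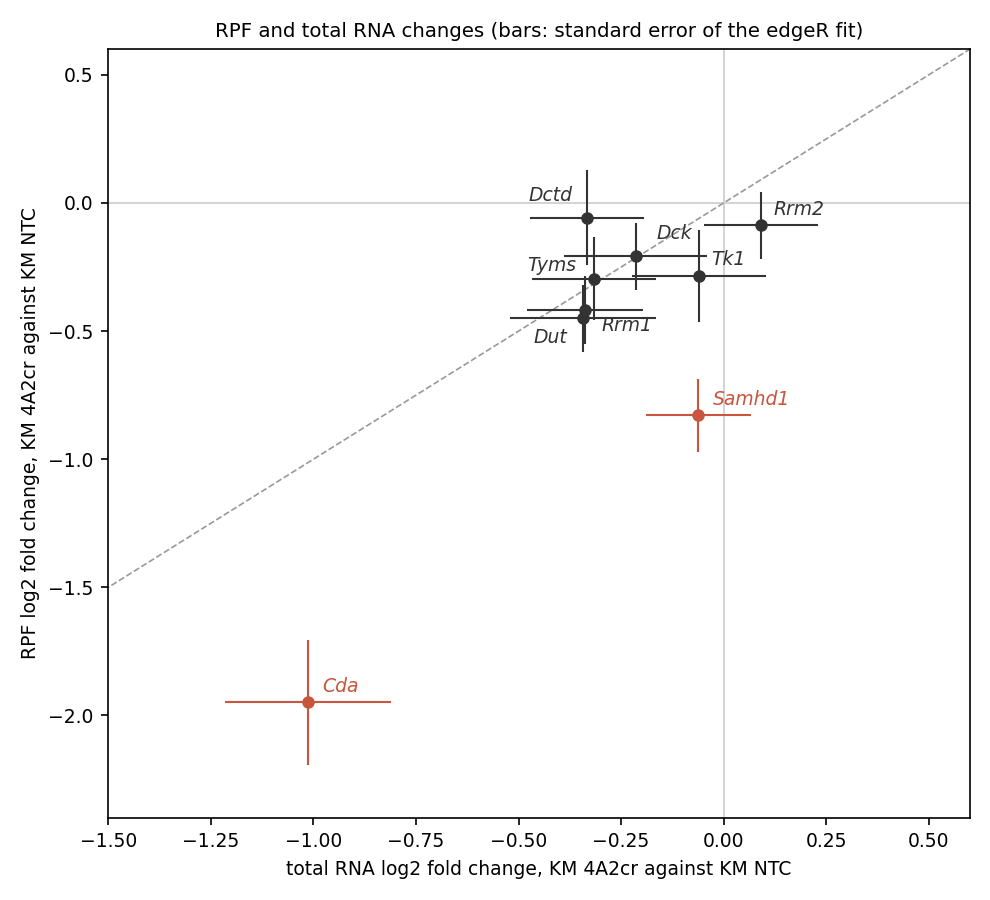
RPF against total RNA log2 fold change of the 9 genes, KM 4A2cr against KM NTC, with bars for the standard error of the edgeR fit and a dashed line where both are equal. The genes chosen for their falls are red; *Samhd1* lies at -0.83 in RPFs and -0.06 in total RNA, *Cda* at -1.95 and -1.01, and the other 7 between -0.45 and 0.09 on both axes.

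Translational efficiency, the change in RPFs beyond that in total RNA, was fitted as an interaction over the 16 libraries. Of the 9 genes 1 was called lower, *Samhd1*, where 1% of 9989 genes were called lower, 1.87% higher and 2.87% in either direction, and since *Samhd1* was chosen on this contrast nothing is read from the count. Its log2 difference was -0.74 (SE 0.11), and -0.66 without replicate 4. *Cda* had a value of -0.89 with a wider SE of 0.29. The other 7 ran from -0.21 for *Tk1* (adjusted p = 0.532 in edgeR) to 0.29 for *Dctd* (SE 0.13, adjusted p = 0.277). Of the 7, 0 were called in edgeR or DESeq2, and DESeq2 gave no adjusted p for *Tk1*, *Tyms* and *Dck*. An unadjusted p under 0.05 in edgeR was reached by 1 of the 7 and by 1409 of all 9989 genes. Without replicate 4, when 7.94% of all genes were called, *Dctd* had a value of 0.38 (adjusted p = 0.0600 in edgeR).

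The ratio of RPF CPM to total RNA CPM was taken within each lysate. It depends also on the length of the transcript outside the coding sequence, so it is compared here within a gene. *Samhd1* had ratios of 0.335, 0.423, 0.176 and 0.0837 in KM NTC and of 0.217, 0.249, 0.113 and 0.0389 in KM 4A2cr. In each pair KM 4A2cr was the lower, and in each line replicate 4 was the lowest. From its highest to its lowest KM NTC lysate the ratio changed 5.06-fold, and the lowest was replicate 4, with the highest total RNA and the fewest RPFs. Of 9968 genes with RPFs and total RNA in all 4 KM NTC lysates, 77 (0.772%) had a wider range, a comparison made after these values had been seen.

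*Cda* had 2.48, 2.06, 2.43 and 2.04 in KM NTC and 1.19, 1.49, 0.585 and 1.54 in KM 4A2cr, with no overlap. The share of all genes with no overlap in this ratio was not computed. Since *Cda* was chosen for its fall, nothing is read from it. *Rrm1* ran from 1.61 to 1.94 in KM NTC and from 1.47 to 1.82 in KM 4A2cr, and *Dut* from 1.78 to 2.33 and from 1.38 to 2.26. In KM NTC, 86.4% of genes had a wider range than *Cda*, 88.4% a wider one than *Rrm1* and 48.5% a wider one than *Tk1*. *Tyms*, with few counts, spanned 1.91-fold there, and 18.1% of genes spanned more.

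**Figure D3:**
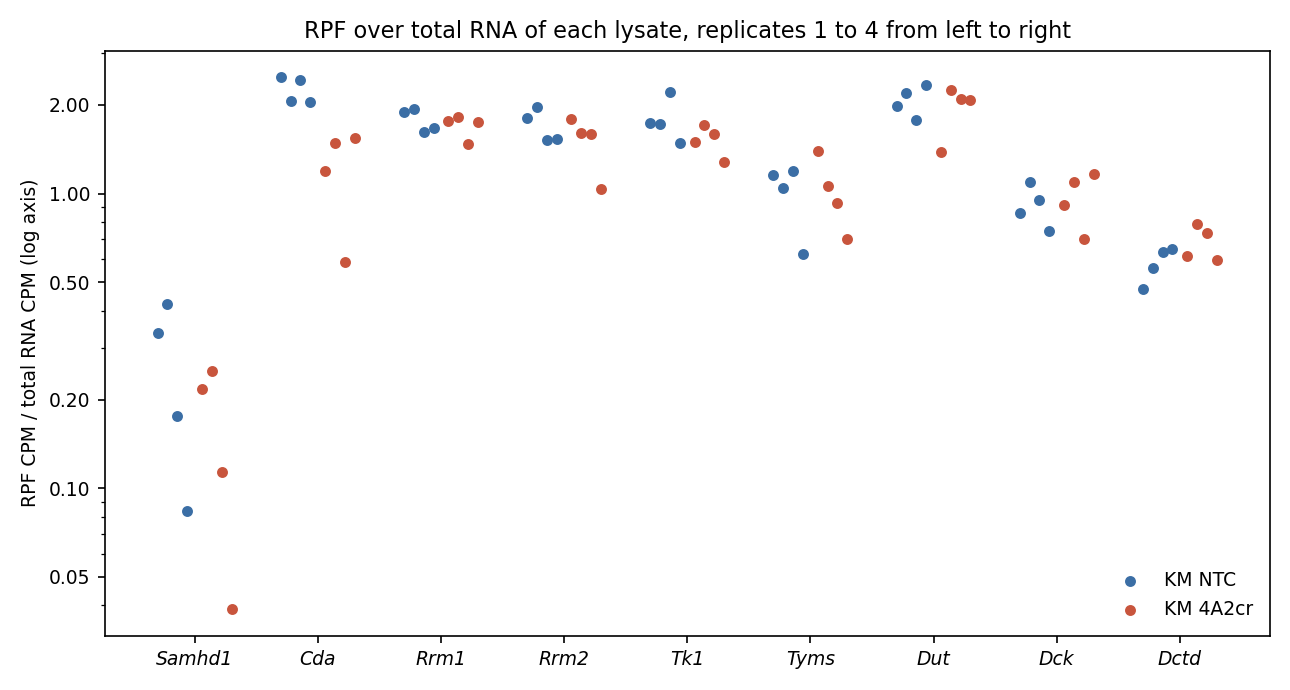
RPF CPM divided by total RNA CPM in each lysate, on a log axis, for KM NTC (blue) and KM 4A2cr (red), with replicates 1 to 4 from left to right within each group. *Samhd1* spans 0.0389 to 0.423. *Cda*, chosen for its fall, does not overlap between the lines, and the share of all genes with no overlap was not computed.

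Levels of the 9 genes can be ordered by TPM, which accounts for transcript length. Over the 8 total RNA libraries *Samhd1* had the highest mean, 93.7 ± 25.7 TPM (SD, n = 8, both lines together), followed by *Dctd* with 70.6 ± 23.3, *Dut* with 56.2 ± 29.0, *Rrm2* with 52.7 ± 27.1, *Tk1* with 28.4 ± 12.7 and *Rrm1* with 21.3 ± 10.8. *Dck* with 13.3 ± 6.53, *Cda* with 12.9 ± 6.94 and *Tyms* with 8.73 ± 4.53 TPM were the scarcest. Each mean differed from the next by less than the larger SD of the pair. That SD is a spread between libraries that the genes share, so it does not measure the difference between neighbours in this order. In every library *Tk1* lay above *Rrm1*, and *Rrm1* above *Dck*. The order was not tested. Within the lines the order was not quite the same, since *Cda* lay above *Dck* in KM NTC (18.1 and 14.5 TPM) and below it in KM 4A2cr (7.71 and 12.0 TPM). *Dut* lay above *Rrm2* in KM NTC (63.9 and 53.6 TPM) and below it in KM 4A2cr (48.5 and 51.8 TPM).

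For 6 of the 9 genes replicate 4 was the lowest library of each line, in RPFs and in total RNA. RPFs of *Rrm2* in replicate 4 were 0.174 of the mean of replicates 1 to 3 in KM NTC and 0.152 in KM 4A2cr, and those of *Tyms* were 0.149 and 0.128. *Rrm1*, *Tk1*, *Dut* and *Dck* had 0.260 to 0.434 of that mean. In total RNA the same 6 genes had 0.198 to 0.541. *Cda* went the other way, with 1.99 and 2.55 times the mean of the others in RPFs and 2.27 and 1.73 times in total RNA.

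*Samhd1* was divided by kind of library in replicate 4. Its total RNA was 2.08 and 2.32 times the mean of the other replicates in KM NTC and KM 4A2cr, whereas its RPFs were 0.594 and 0.489 of it. *Dctd* RPFs were 0.915 of it in KM NTC, inside the range of the others, and 0.446 in KM 4A2cr. These are values of 1 replicate in each line, with no test, and less RNA per cell cannot be told apart from fewer cells in S phase in bulk samples.

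**Figure D4:**
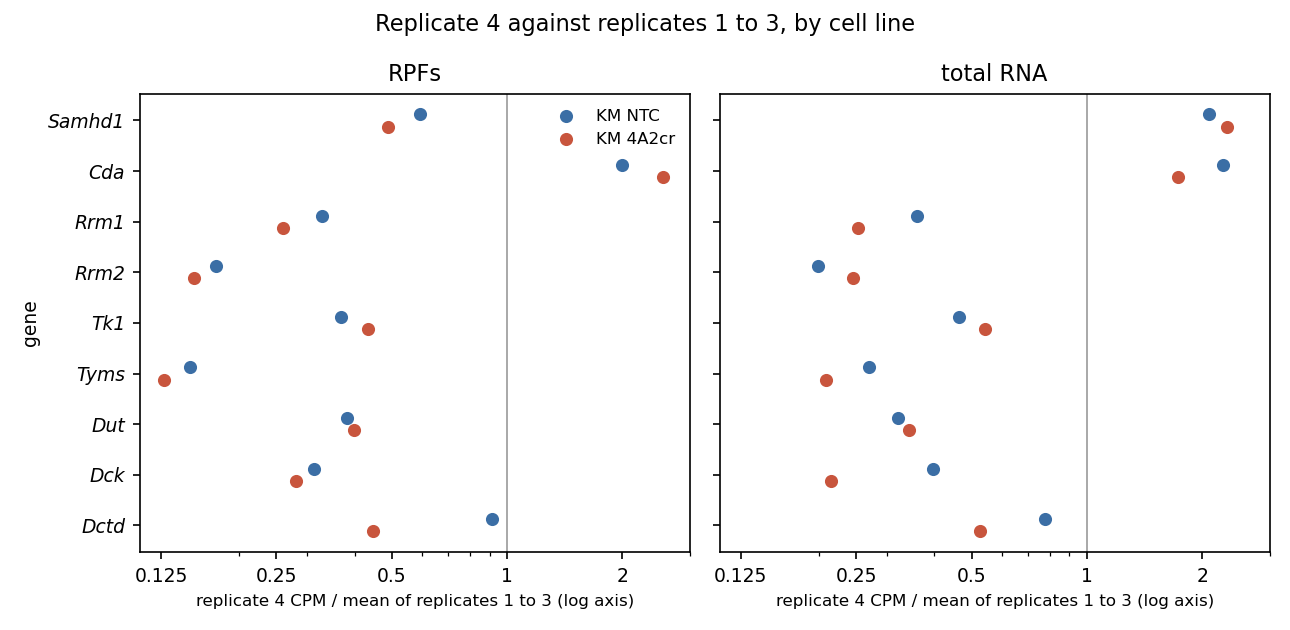
CPM in replicate 4 divided by the mean CPM of replicates 1 to 3, on a log axis, for RPFs (left) and total RNA (right) of KM NTC (blue) and KM 4A2cr (red). A line marks equal levels; *Rrm1*, *Rrm2*, *Tk1*, *Tyms*, *Dut* and *Dck* lie at 0.128 to 0.541, *Cda* above 1 throughout, and *Samhd1* below 1 in RPFs and above 1 in total RNA.

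Other genes of DNA replication were low in the same libraries. Of 35 genes in an S phase list, among them the MCM helicase and the GINS complex, 33 had fewer RPFs in replicate 4 of KM NTC than in the mean log2 CPM of replicates 1 to 3 (median -1.20) and 34 in KM 4A2cr (median -1.64), against medians of 0.00 and -0.05 over all genes. The medians of a list of 20 mitosis genes were -0.71 and -0.64, and those of the 6 epithelial markers were 0.04 and 0.22. *Eif4a2* itself was 3.65 and 4.84 times higher in the RPFs of replicate 4. The part of cell cycle state, culture or depth in these values was not tested.

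Between the lines 0 of 35 S phase genes were called in RPFs in edgeR or DESeq2, at a median log2 fold change of -0.14. An unadjusted p under 0.05 in edgeR was reached by 5 of the 35 and by 2411 of all 10291 genes. Without replicate 4, 3 were called higher and 4 lower, where 1982 and 1487 of all 10376 genes were. In total RNA edgeR called 1 of the 35 higher and 1 lower, where 4.35% and 1.78% of all genes were, and DESeq2 called 0. The 2 genes were *Cdc6*, which loads the MCM helicase, at 0.62 (adjusted p = 0.0941 in edgeR) and *Gins4* at -0.45 (adjusted p = 0.0977). Of 20 mitosis genes 9 were called lower in RPFs and 0 higher, at a median of -0.42, where 3.72% of all genes were called lower. Without replicate 4, when 33.4% of all genes were called in either direction, 15 were called lower and 1 higher. Those with the smallest p were *Cdc20*, which activates the anaphase-promoting complex, at -0.87 (adjusted p = 0.0185 in edgeR), the separase *Espl1* at -0.77 (adjusted p = 0.0224), cyclin B1 (*Ccnb1*) at -0.67 (adjusted p = 0.0243) and *Nusap1* at -0.66 (adjusted p = 0.0287). Total RNA log2 fold changes of all 20 mitosis genes were below 0, at a median of -0.36. Of these 3 were called lower, where 1.78% of all genes were. Without replicate 4, 16 were called lower in total RNA and 0 higher, where 29.8% of all genes were called in either direction. For translational efficiency 0 of the 20 were called in edgeR or DESeq2. An unadjusted p under 0.05 in edgeR was reached by 5 of the 20 and by 1409 of all 9989 genes.

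*Samhd1* is also known as an interferon-inducible gene in many cell types. Of 30 interferon response genes, 28 were matched and 11 were tested in RPFs. Of these 0 were called in edgeR or DESeq2, where edgeR called 10.3% of all genes. An unadjusted p under 0.05 in edgeR was reached by 2 of the 11 and by 2411 of all 10291 genes. The median log2 fold change was -0.03. Without replicate 4, 1 was called higher, where 1982 of all 10376 genes were. In total RNA 1 of 14 was called, where 4.35% of all genes were called higher. This was *Parp9*, which was higher by 1.55 (adjusted p = 0.0219 in edgeR) at 0.937 ± 0.526 CPM in KM NTC and 2.79 ± 1.23 CPM in KM 4A2cr (SD, n = 4). Without replicate 4, 3 of the 14 were called higher in total RNA and 0 lower, where 1951 and 1309 of all 10941 genes were.

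The rest of nucleotide metabolism was followed in 8 lists with 93 genes beside the 9. Of 78 tested in RPFs, 4 were called higher and 9 lower, with a median log2 fold change of -0.13, where 6.6% and 3.72% of all genes were called. Without replicate 4, when 33.4% of all genes were called, the count was 37. It held 7 lower and 1 higher in purine synthesis, 4 lower in pyrimidine synthesis, 4 lower in the clearing of damaged nucleotides, and 2 higher and 4 lower in the folate list. It also held 4 higher and 2 lower in the breakdown list and 1 lower among the reductase partners. The genes named below are given with all replicates. Each gene called in RPFs moved the same way in 4 of 4 pairs. In total RNA 2 of 81 were called higher and 2 lower, where 4.35% and 1.78% of all genes were. In translational efficiency 1 of 78 was called higher and 1 lower, where 1.87% and 1% of all genes were.

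Purine synthesis, with 15 tested genes, held 4 of the 9 genes called lower in RPFs, where 3.72% of all genes were called lower. *Gart*, which carries 3 steps of the pathway, fell from 123 ± 53.6 to 81.2 ± 36.2 CPM in RPFs, a log2 fold change of -0.60 (SE 0.12, adjusted p = 0.0287 in edgeR). *Pfas*, the enzyme of the step between those of *Gart*, fell by 0.55 (adjusted p = 0.0528 in edgeR), the first committed enzyme *Ppat* by 0.45 (adjusted p = 0.0844) and *Prps1*, which makes the ribose donor PRPP, by 0.50 (adjusted p = 0.0953). *Adssl1*, of the branch to AMP, rose by 0.45 (adjusted p = 0.0941 in edgeR) in RPFs and by 0.50 in total RNA (adjusted p = 0.0820). The 15 genes of the list had an RPF median of -0.17. *Aprt*, the adenine salvage enzyme, was called lower in translational efficiency, at -0.42 (adjusted p = 0.0534 in edgeR).

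In pyrimidine synthesis *Umps*, which makes UMP, fell by 0.57 in RPFs (adjusted p = 0.0941 in edgeR) and by 0.53 in total RNA (adjusted p = 0.0517), and the other 4 genes, which include *Cad* and *Dhodh*, were below 0 in RPFs without passing. Among the 7 tested enzymes that clear damaged or unusual nucleotides, as *Dut* does for dUTP, 3 were called lower in RPFs in edgeR. Over all genes 3.72% were called lower, and DESeq2 called 2 of the 7. The 3 genes called in edgeR are named next. These were *Nudt5* at -0.69 (adjusted p = 0.0245 in edgeR), *Nudt16* at -0.98 (adjusted p = 0.0344) and *Dnph1* at -0.60 (adjusted p = 0.0986), which cleave ADP-ribose and related compounds, inosine nucleotides and hydroxymethyl-dUMP. *Nudt5* total RNA was called too, at -0.44 (adjusted p = 0.0739 in edgeR).

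The list of thymidylate and folate enzymes, which feed *Tyms* with its cofactor, held a large rise. *Ggh*, which trims the polyglutamate tail of folates in the lysosome, went from 12.1 ± 5.44 to 40.6 ± 11.3 CPM in RPFs (SD, n = 4), a log2 fold change of 1.82 (SE 0.19, adjusted p = 0.00267 in edgeR), and rose by 1.35 in total RNA (adjusted p = 0.00572). The other 10 tested genes of that list did not pass, at a list median of -0.29. Of the 15 tested breakdown genes 2 were called higher in RPFs in edgeR, where 6.6% of all genes were, and DESeq2 called 1 of the 15. *Upp1*, which cleaves uridine, rose by 0.54 (adjusted p = 0.0908 in edgeR) and *Dera*, which splits deoxyribose phosphate, by 0.42 (adjusted p = 0.0941). Of the 17 tested kinases 0 were called in RPFs in edgeR or DESeq2 (2 higher and 4 lower without replicate 4). An unadjusted p under 0.05 in edgeR was reached by 3 of the 17 and by 2411 of all 10291 genes. *Nme2*, a nucleoside diphosphate kinase, was called higher in translational efficiency, at 0.53 (adjusted p = 0.0551 in edgeR). Of the 3 tested nucleoside transporters 0 were called in RPFs or total RNA in edgeR or DESeq2. In both kinds 0 of the 3 had an unadjusted p under 0.05 in edgeR. Over all genes 2411 of 10291 had it in RPFs and 1995 of 10880 in total RNA. Without replicate 4, 2 of the 3 were called higher in RPFs (median 0.31) and 3 of 3 in total RNA (median 0.48), where 33.4% and 29.8% of all genes were called in either direction.

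*Samhd1* and *Dut* lie on chromosome 2. Of 833 chromosome 2 genes tested in RPFs, 85 (10.2%) were called lower, where 3.72% of all genes tested were. Of the 833, 593 were below 0 and 240 above, with a median log2 fold change of -0.21 against -0.01 over all genes. In total RNA 48 of 900 (5.33%) were called lower, where 1.78% of all genes tested were, and 667 of the 900 were below 0 and 233 above. Around *Dut* 8 of the 10 nearest tested genes were below 0 in RPFs, with a median of -0.25, and 8 in total RNA, with a median of -0.19. Around *Samhd1* 5 of 10 were below 0 in RPFs, with a median of -0.03 and a range from -1.24 for *Tgif2* to 0.34 for *Blcap*, and 6 in total RNA, with a median of -0.05. Its next tested neighbours on either side, *Soga1* and *Rbl1*, stood at 0.24 and 0.02 in RPFs. The part of the chromosome in the *Dut* and *Samhd1* values was not tested.

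The genes whose log2 CPM ran most like that of a member were found by the lower of the Pearson correlations over the 8 RPF and the 8 total RNA libraries, among 9988 genes. These values describe likeness over libraries that include replicate 4, which stood apart in each group, and their size without it was not computed. For *Rrm2* the nearest were *Hist1h4f*, a histone gene, with a lower r of 0.98, *Rbm3* with 0.97 and *Chaf1a*, of the chromatin assembly factor, with 0.97. *Hist1h4f* belongs to a family of near-identical copies whose reads can be exchanged. For *Samhd1* they were *Dcaf17* (0.93), *Dffa* (0.87) and *Exosc2* (0.86), and for *Cda* they were *Plcl2* (0.87), *Syne4* (0.86) and *Zbtb10* (0.85).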

How the data were processed

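The deposited RPF values are whole-number counts for each transcript. Per their methods, reads were trimmed with Cutadapt 1.18, cleared of ribosomal and transfer RNA, aligned with BBmap to the most abundant protein-coding transcript of each gene (GENCODE vM27), deduplicated by UMI and summed over the coding sequence, leaving out both ends. The deposited total RNA values are expected counts, TPM and isoform percent from RSEM 1.3.3, run by the authors after Bowtie2 2.3.5.1. Isoform percent was not used.

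Here, expected counts were summed per gene and rounded, and RPF transcripts were joined to genes. Symbols matched for 231 of 234 list names. Libraries were filtered with filterByExpr, scaled by TMM within each kind and tested with edgeR 4.0.16 (R 4.3.3, limma 3.58.1) with line and replicate as terms. P-values were adjusted over all genes tested after Benjamini-Hochberg, at a threshold of 0.1. The model of translational efficiency held all 16 libraries, terms for lysate and for replicate within kind, and the interaction of line and kind. Log2 CPM used a prior count of 2. DESeq2 1.42.0 was an alternative. Scripts were tested on simulated data.

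Replicates were independent experiments on different days, and same-numbered libraries of the lines deviated together, with correlations across genes of 0.575 to 0.782 in RPFs and 0.611 to 0.756 in total RNA, so the number was kept as a block. Scaling within each kind hides a change of all footprints or all mRNA. The 9 genes and all lists were chosen with earlier results of these data known. Named genes are the members, *Eif4a2*, at most 4 called genes of each list by smallest p, and the 3 genes most like *Samhd1*, *Cda* and *Rrm2*. The cell type markers, *Rrm2b*, *Cad*, *Dhodh*, *Prps1*, *Aprt*, *Nme2*, *Soga1*, *Rbl1*, *Tgif2* and *Blcap* fall outside this rule and were named after their values were seen. Chromosomes come from RefSeq (GRCm38.p6), another build than the files. One allele of the source mouse is not reported here.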

Additional observations from a re-analysis of the deposited data

Results flagged for a closer look

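*Rrm2* RPFs in KM NTC held a library far from the others. Replicate 4 stood at 22.7 CPM against 123 to 143 CPM in the other 3, and this gap was 0.832 of the whole range of the group, above Dixon's critical value for 4 samples. It was the only such group of 36 checked (9 genes, 2 kinds of library and 2 lines), and chance alone marks about 1 in 20 groups. *Rrm2* RPFs were low in replicate 4 of KM 4A2cr too, at 19.4 CPM, and *Rrm2* total RNA stood there at 14.8 and 18.7 CPM. Its RPF log2 fold change was -0.09 with replicate 4 and -0.05 without it.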

How the results depend on the processing

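The counts depended on the replicates used and on the replicate block. Leaving out each replicate in turn, 1 to 4 of the 9 genes were called in RPFs, 0 to 2 in total RNA and 1 to 3 in translational efficiency. Over all genes these counts ran from 32 to 3469 in RPFs, 63 to 3260 in total RNA and 15 to 800 in translational efficiency, and among the other nucleotide genes from 1 to 37, 1 to 29 and 0 to 6. The lowest RPF and total RNA counts came without replicate 3, the lowest of translational efficiency without replicate 1, and the highest without replicate 4.

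Without the replicate block 0 members, 0 other nucleotide genes and 0 genes in all passed in edgeR, in each of the 3 comparisons, while 365 RPF, 362 total RNA and 506 translational efficiency genes had an unadjusted p under 0.05. DESeq2 with the block called 958, 589 and 136 genes, and 1 other nucleotide gene in total RNA.

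At an adjusted p under 0.05, 438, 321 and 75 genes and 4, 1 and 0 other nucleotide genes passed in RPFs, total RNA and translational efficiency, and *Dut* did not. Scaling by library size only moved the median of all genes to -0.14 (RPFs) and -0.15 (total RNA). This scaling gave 1619 RPF calls (482 higher, 1137 lower, against 679 and 383 with TMM), 1130 in total RNA (262 and 868, against 473 and 194) and 133 in translational efficiency, with 20, 11 and 1 other nucleotide genes, and 3 members in total RNA. With no filter on low counts, 1268 total RNA genes, 470 translational efficiency genes, 7 other nucleotide genes in total RNA and 2 members in translational efficiency passed. The 2 members were *Samhd1* and *Cda*, both chosen for their falls. With only the RPF isoform counted, 1 other nucleotide gene passed in translational efficiency.

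The direction turned in a few values near 0. With each replicate left out, *Dctd* RPFs ran from -0.17 to 0.15, *Tk1* total RNA from -0.22 to 0.059, and, in translational efficiency, *Tyms* from -0.13 to 0.19, *Dut* from -0.20 to 0.077 and *Dck* from -0.081 to 0.14. By library size only *Rrm2* total RNA was at -0.062 and *Tyms* translational efficiency at -0.0053, *Samhd1* total RNA was 0.023 with the RPF isoform, and *Dck* translational efficiency was 0.0041 in DESeq2. Over the alternatives the RPF value of *Samhd1* ran from -0.97 to -0.77 and that of *Cda* from -2.20 to -1.66. For *Dut* it ran from -0.58 to -0.32, with an adjusted p from edgeR or DESeq2 of 0.0100 to 0.998, and for *Rrm1* from -0.55 to -0.35, at 0.0298 to 0.998. Footprints per mRNA divided by coding length were not run, since no coding lengths were used here. The cause of these shifts was not tested.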
